A study of Mus musculus with 6 samples.

Results

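The genes described here are 10 transcripts that the mouse oocyte makes for its coat, its growth signals and its maternal stores: Zp1, Zp2, Zp3, Gdf9, Bmp15, Figla, Nobox, Oog1, Nlrp5 and Dppa3. They were taken by exact gene symbol from a count table of 51826 genes, and each symbol matched 1 row. All 10 passed the filter on low counts, which kept 19027 genes. The libraries came from whole frozen ovaries of ICR mice, an outbred strain, and fall into 3 groups of 2. The first group is ovaries of OHSS mice, a model of ovarian hyperstimulation syndrome, that also received nintedanib (bibf1120), an inhibitor of VEGF, PDGF and FGF receptor kinases. The second is ovaries of OHSS mice without the drug, and the third is a group labelled COH, a name that the labels do not spell out. The labels give no age, hormone schedule, drug dose or number of animals behind a library, and they do not state whether replicate libraries stand for different animals. The p-values therefore measure only the spread between these libraries, which may be technical.

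The zona pellucida is the glycoprotein coat that surrounds the growing mouse oocyte, and the oocyte itself makes its subunits ZP1, ZP2 and ZP3. GDF9 and BMP15 are growth factors of the TGF-beta family that the oocyte secretes and to which the surrounding granulosa and cumulus cells respond. FIGLA and NOBOX are transcription factors that switch on oocyte genes, among them those of the coat and of the growth factors, and the proteins of Nlrp5, Dppa3 and other maternal genes are stored for the early embryo. In a whole ovary these messages come from few cells among many granulosa, luteal and stromal cells. In such bulk samples, fewer oocytes and less RNA per oocyte cannot be told apart.

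Total counts were 28498435 and 31308357 in the nintedanib libraries, 32390829 and 30993703 in OHSS and 34716751 and 28609601 in COH. Levels are given as CPM, counts relative to the library size after TMM scaling, so they also depend on how much RNA other cells gave. The totals reached 144.2 to 148% of the read pairs, so a count need not be an independent fragment, and whether both reads of a pair or reads with several matches were counted more than once was not tested. Total counts were higher in the library with the higher oocyte levels within the nintedanib group and within COH, and lower in it within OHSS, and the part of depth in the results below was not tested.

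The egg coat genes stood lowest in nintedanib replicate 1 and highest in COH replicate 1. Zp2, whose protein takes part in sperm binding and is cleaved after fertilisation, had 41.0 and 72.0 CPM in the nintedanib libraries, 53.1 and 64.5 CPM in OHSS and 80.9 and 67.6 CPM in COH. Zp3, whose protein builds the coat filaments together with ZP2, had 30.2 and 50.8 CPM with nintedanib, 32.3 and 37.8 CPM in OHSS and 59.4 and 44.2 CPM in COH. Zp1, whose protein links those filaments, had 16.0 and 27.9 CPM with nintedanib, 16.5 and 21.5 CPM in OHSS and 30.8 and 22.3 CPM in COH. For each of these genes both OHSS libraries lay below both COH libraries, while the nintedanib libraries lay on either side of the OHSS pair. The highest library held 1.92, 1.97 and 1.97 times the lowest for Zp1, Zp2 and Zp3.

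The growth factor genes were highest in nintedanib replicate 2 and lowest in OHSS replicate 1. Gdf9 had 38.7 and 71.6 CPM in the nintedanib libraries, 34.2 and 40.8 CPM in OHSS and 67.6 and 40.3 CPM in COH. Bmp15, an X-linked relative of Gdf9 that acts with it, had 14.0 and 29.5 CPM with nintedanib, 13.5 and 16.8 CPM in OHSS and 26.4 and 14.1 CPM in COH. COH replicate 2 lay between the OHSS libraries for both genes, so OHSS and COH overlapped. Within nintedanib and within COH the libraries lay farther apart than the OHSS libraries did, and the highest of the 6 held 2.09 times the lowest for Gdf9 and 2.18 times for Bmp15.

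The transcription factor genes differed in how closely they followed the other oocyte genes, Figla less than any of the 10. Nobox, a homeobox gene, had 6.49 and 15.2 CPM in the nintedanib libraries, 9.002 and 8.51 CPM in OHSS and 13.2 and 11.6 CPM in COH. Figla, a basic helix-loop-helix gene, was the lowest of the 10, with 14 and 33 counts with nintedanib, 18 and 14 counts in OHSS and 35 and 39 counts in COH, or 0.49 and 1.03, 0.58 and 0.46, and 0.98 and 1.37 CPM. Both genes were lower in both OHSS libraries than in both COH libraries. Figla was the only one of the 10 with its highest level in COH replicate 2.

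The promoter sequences of Zp3 and Bmp15 are shown because they are the coat and growth factor genes with a window in the RefSeq table used here, and because FIGLA is known to bind E-boxes (CANNTG, which reads the same on both strands) and NOBOX is known to bind TAATTG and TAATTA elements. Each run holds the 250 bases before the RefSeq start site (GRCm38.p6), 5′ to 3′ on the gene's strand, with E-boxes and TAATTG or TAATTA matches of either strand in capitals. The Zp3 window lies at chr5:135979855-135980104 on the plus strand and the Bmp15 window at chrX:6320725-6320974 on the minus strand.
Zp3: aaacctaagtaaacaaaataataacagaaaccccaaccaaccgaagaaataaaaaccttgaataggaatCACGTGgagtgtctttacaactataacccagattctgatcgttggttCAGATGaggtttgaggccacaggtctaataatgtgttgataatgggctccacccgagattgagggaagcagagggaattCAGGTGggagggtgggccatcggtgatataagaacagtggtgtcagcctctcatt
Bmp15: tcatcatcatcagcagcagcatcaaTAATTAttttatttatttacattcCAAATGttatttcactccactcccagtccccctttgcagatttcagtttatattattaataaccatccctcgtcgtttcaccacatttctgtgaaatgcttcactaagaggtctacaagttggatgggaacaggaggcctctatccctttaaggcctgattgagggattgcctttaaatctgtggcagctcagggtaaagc

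The Zp3 window holds E-boxes that begin 181, 134 and 55 bases before the start site, and no TAATTG or TAATTA. At least 3 E-boxes occur in 12.2% of the 32851 RefSeq promoter windows of this length, and at least 1 in 66.2%. The Bmp15 window holds 1 E-box, which begins 201 bases before the start, and 1 TAATTA, which begins 225 bases before it and overlaps no E-box. TAATTA occurs in 4.84% of all windows and TAATTG in 7.17%. The table used here held windows for 6 of the 10 genes, 7 in all, since Nlrp5 has 2. Those of Nobox and Figla hold 2 E-boxes each, that of Oog1 holds 3 and each of those of Nlrp5 holds 2, and 1 Nlrp5 window also holds a TAATTA. None of the 7 holds TAATTG. Windows of Zp1, Zp2, Gdf9 and Dppa3 were not analysed here. A match is a description of the letters and not a bound site.

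Of the maternal store genes, Nlrp5, whose protein belongs to the subcortical maternal complex of the egg, had 24.4 and 53.1 CPM in the nintedanib libraries, 21.2 and 29.1 CPM in OHSS and 44.1 and 27.4 CPM in COH. Dppa3, also called Stella, which protects maternal DNA methylation in the zygote, had 4.96 and 14.5 CPM with nintedanib, 8.10 and 8.08 CPM in OHSS and 12.2 and 8.65 CPM in COH. Its level in nintedanib replicate 2 was 2.92 times that in nintedanib replicate 1, so the lowest and the highest value of Dppa3 came from the same group. Oog1, a leucine-rich repeat gene of the oocyte, had 6.28 and 9.04 CPM with nintedanib, 4.08 and 5.15 CPM in OHSS and 7.22 and 4.97 CPM in COH. It was the only gene of the 10 with both nintedanib libraries above both OHSS libraries. The level of Oog1 is uncertain, because 94.0% of the 75-base windows of its annotated transcript (GENCODE M21) also occur in transcripts of 4 other genes, those shared with Gm2042 being 93.3% of all windows, and how the authors counted reads with several matches is not given in the sources used here. For Nlrp5 and Dppa3 the shared part was 5.13% and 4.08%, each with a pseudogene, and for the other 7 genes no window was shared.

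**Figure D1:**
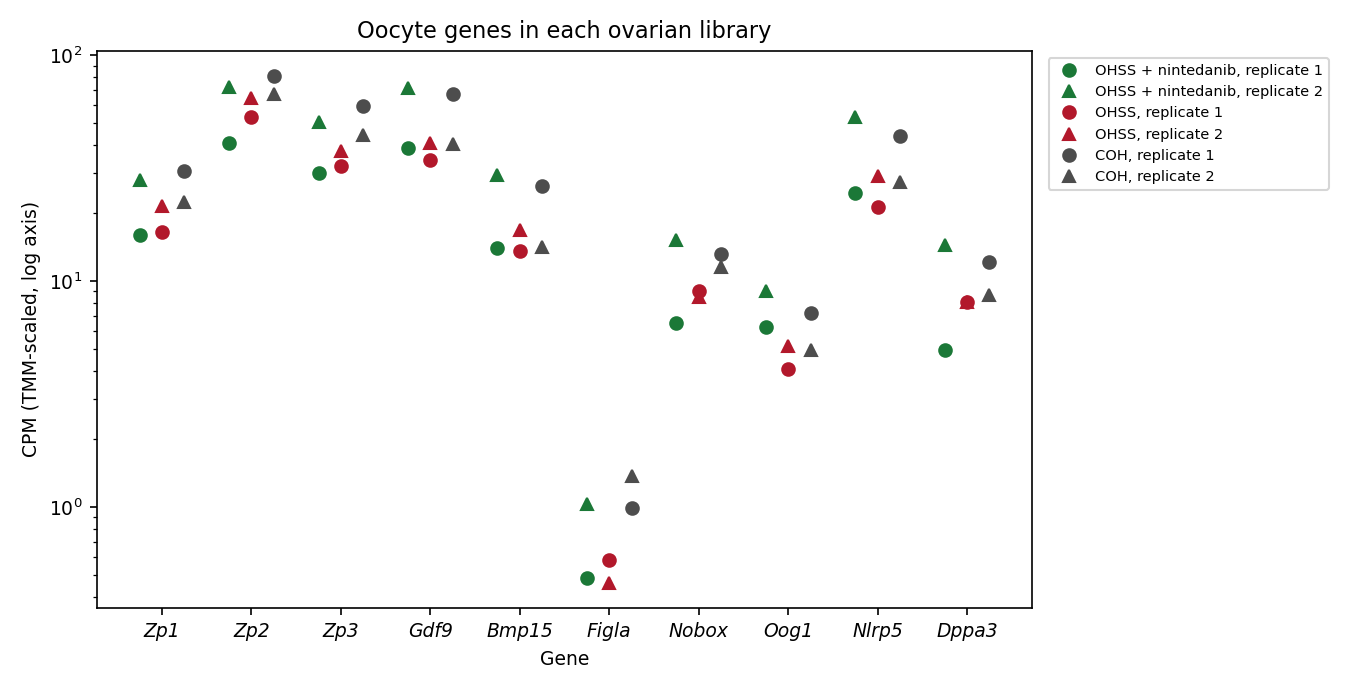
Level of each oocyte gene in each library, in CPM on a log axis, with the nintedanib group left, OHSS in the middle and COH right for each gene, and circles for replicate 1 and triangles for replicate 2. The green triangles and grey circles, nintedanib replicate 2 and COH replicate 1, are the highest points for 9 of the 10 genes, and Figla, at 0.46 to 1.37 CPM, lies below all others.

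Levels of different genes were compared as CPM per kilobase of the principal transcript in GENCODE M21, matched by gene ID for 10 of 10 genes. Zp3 averaged 32.1 CPM per kilobase (SD 8.52 over the 6 libraries), Zp2 28.4 (SD 6.39) and Gdf9 27.2 (SD 9.06). Zp3 was above Zp2 in 5 of 6 libraries, and Zp2 was above Gdf9 in 3 of 6, so Zp2 and Gdf9 could not be ordered. Gdf9 was above Zp1, at 11.5 CPM per kilobase (SD 3.04), in 6 of 6 libraries. Zp1 was above Dppa3, at 11.3 (SD 4.06), in 4 of 6, and Dppa3 above Nlrp5, at 9.47 (SD 3.57), in 5 of 6. Nlrp5 was above Bmp15, at 6.23 CPM per kilobase (SD 2.31), in 6 of 6, while Bmp15 was above Nobox, at 5.63 (SD 1.71), in 4 of 6. Nobox was above Oog1, at 3.40 (SD 0.998), in 5 of 6, and Figla came last with 1.08 CPM per kilobase (SD 0.481), below Oog1 in 6 of 6. Zp3, Zp2 and Gdf9 thus formed the top of the order, and Oog1 and Figla the bottom.

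The 10 genes shared an order of the libraries that cut across the groups. For 9 of them, Figla excepted, the 2 highest libraries were nintedanib replicate 2 and COH replicate 1, which holds for 6.53% of all 19027 genes tested. This order was noticed in the data and is a description. The mean of the 10 genes, each as log2 CPM minus its own mean over the libraries, was -0.45 and 0.52 in the nintedanib libraries, -0.36 and -0.17 in OHSS and 0.44 and 0.02 in COH. The spread within nintedanib and within COH was therefore wider than that within OHSS. Summed over the 10 genes, the level was 182.6 and 344.5 CPM with nintedanib, 192.6 and 232.6 CPM in OHSS and 342.7 and 242.5 CPM in COH. Both OHSS sums lay below both COH sums, and an exact two-sided permutation test of their log2 values gave p = 0.333, the smallest p that 2 libraries against 2 allow. The nintedanib sums enclosed both OHSS sums, and the same exact test gave p = 1 against OHSS and p = 1 against COH.

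**Figure D2:**
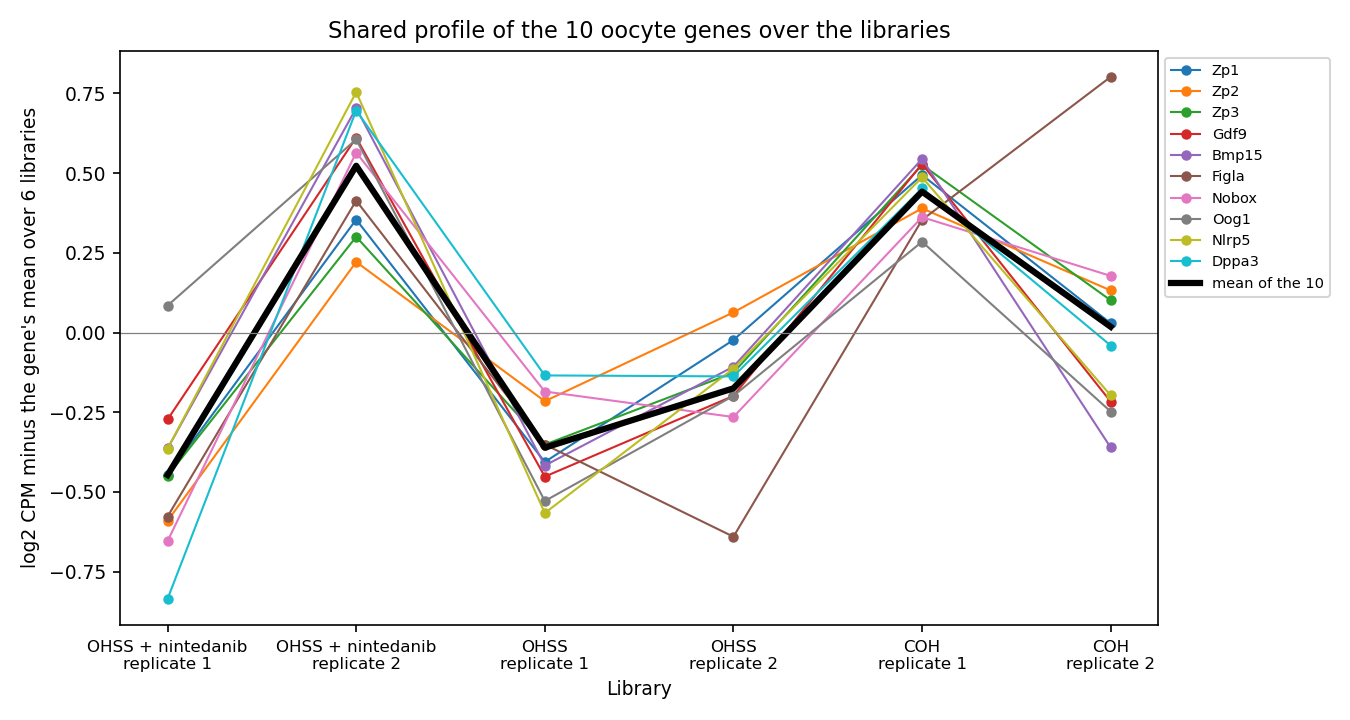
log2 CPM of each oocyte gene minus its mean over the 6 libraries (y axis) in each library (x axis), with a thin line per gene and a thick black line for the mean of the 10, which runs at -0.45, 0.52, -0.36, -0.17, 0.44 and 0.02. The lines of most genes run close together, and Figla departs from the others in OHSS replicate 2 and COH replicate 2.

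Ratios between the genes mostly varied less than the levels. Over the 6 libraries the SD of log2 CPM was 0.352 to 0.653 per gene, while the SD of the log2 ratio over the 45 pairs had a median of 0.287 and ran from 0.0676 to 0.642. The tightest pair was Zp1 and Zp3, whose ratio was 0.530 and 0.550 with nintedanib, 0.509 and 0.569 in OHSS and 0.518 and 0.504 in COH. The next was Gdf9 and Bmp15, with a ratio of 2.76 and 2.42 with nintedanib, 2.53 and 2.43 in OHSS and 2.56 and 2.86 in COH (SD 0.0981). The widest pair was Figla and Oog1, and without Figla the largest SD over 36 pairs was 0.470. Such tight ratios were not limited to genes of 1 role: Gdf9 with Nlrp5 (SD 0.102) and Bmp15 with Nlrp5 (SD 0.105) varied less than Zp2 with Zp3 (SD 0.142) or Zp1 with Zp2 (SD 0.144).

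Between the coat and the growth factors the proportion was lower in the nintedanib libraries. The summed CPM of Zp1, Zp2 and Zp3 over that of Gdf9 and Bmp15 was 1.65 and 1.49 with nintedanib, 2.13 and 2.15 in OHSS and 1.82 and 2.47 in COH. Both nintedanib libraries lay below all 4 others, although their summed levels were the lowest and the highest of the 6. The log2 ratio averaged 0.65 with nintedanib and 1.099 in OHSS, a difference of -0.45, and it averaged 1.08 in COH, a difference of -0.43 for nintedanib minus COH. Each of these had an exact two-sided permutation p = 0.333, the smallest possible, and the OHSS minus COH difference was 0.015 (exact p = 1). This ratio was chosen after its values were seen, and it does not depend on the scaling of the libraries. The sign of either nintedanib difference cannot turn when 1 library is left out, since the nintedanib ratios do not overlap with the others. The size of the difference against COH was -0.65 without COH replicate 1 and -0.21 without COH replicate 2. The OHSS minus COH difference did turn, at -0.204 without COH replicate 1 and 0.235 without COH replicate 2. Zp2 over Zp1 ran the same way between the drug and OHSS, at 2.56 and 2.58 with nintedanib and 3.23 and 3.0 in OHSS, while COH, at 2.63 and 3.04, overlapped with OHSS. The lower coat proportion was not particular to the growth factors. Each coat gene over Nlrp5 and over Oog1 was also lower in both nintedanib libraries than in all others. Zp2 over Nlrp5, for instance, was 1.68 and 1.36 with nintedanib, 2.5 and 2.22 in OHSS and 1.83 and 2.47 in COH. Ratios of the coat genes to Nobox, Dppa3 and Figla did not separate the nintedanib libraries.

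**Figure D3:**
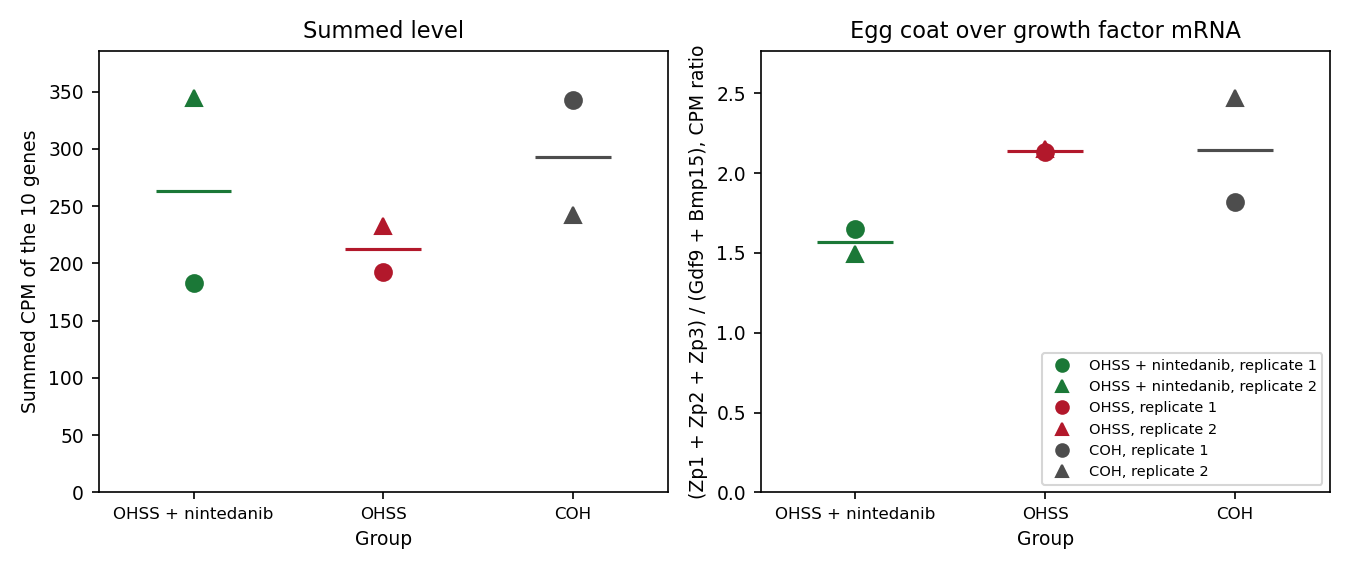
Left, summed CPM of the 10 oocyte genes per library, and right, the ratio of summed coat CPM to summed growth factor CPM, for the nintedanib, OHSS and COH groups, with circles for replicate 1, triangles for replicate 2 and a line at each group's mean. The left panel shows nintedanib libraries at 182.6 and 344.5 CPM, and the right panel shows both nintedanib ratios, 1.65 and 1.49, under all others.

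The first question of the design is how ovaries of the OHSS model differ from COH ovaries. All 10 oocyte genes had a lower fitted mean in OHSS, where 50.4% of all genes were lower and 49.6% higher, and their log2 fold changes ran from -1.17 for Figla to -0.34 for Zp2, with a median of -0.49 against -0.003 over all genes. For Zp3 the mean was 35.05 ± 3.87 CPM in OHSS against 51.8 ± 10.7 CPM in COH (SD, n = 2 each), with a fitted change of -0.56 on the log2 scale (SE 0.288). For Gdf9 it was 37.5 ± 4.65 CPM in OHSS against 53.9 ± 19.3 CPM in COH, with a fitted change of -0.52 (SE 0.371). The widest difference was that of Figla, at 0.5203 ± 0.08255 CPM in OHSS against 1.175 ± 0.2703 CPM in COH, where edgeR gave -1.17 (SE 0.515) and an adjusted p of 0.6. The groups did not overlap for 6 of the 10, all lower in OHSS, against 22.9% of all genes that were lower without overlap. The 6 were Zp1, Zp2, Zp3, Figla, Nobox and Dppa3. Most of the 10 genes shared a profile over the libraries, so counts of them, here and in the comparisons below, are not separate observations. Other measures also differed between these groups. The mitochondrial share of counts was 6.799 and 7.096% in OHSS against 5.211 and 5.959% in COH. Luteal markers had 6 of 6 higher fitted means in OHSS (median log2 fold change 0.67), erythroid markers 5 of 5 lower (median -0.86) and surface epithelium markers 6 of 6 lower (median -0.50). Each list had 0 edgeR calls, beside 0.0105% of all genes. DESeq2 called 1 luteal marker, Star (adjusted p = 0.0288), beside 1.4% of all genes, and 0 erythroid or surface epithelium markers. The part of these measures in the oocyte result was not tested.

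The edgeR quasi-likelihood test called 0 of the 10 genes between OHSS and COH at a Benjamini-Hochberg adjusted p under 0.05, beside 0.0105% of all genes. In this fit of all 6 libraries, the count at an unadjusted p under 0.05 was 0 of 10, against 8.82% of all genes. The lowest unadjusted edgeR p was 0.0692, for Figla. In the edgeR fit of only OHSS and COH, the unadjusted p was 0.0341 for Nobox, 0.0373 for Zp3 and 0.0414 for Figla. The other genes stood at 0.0943 or more there, and the lowest adjusted p was 0.478. The share of all genes under 0.05 in that fit is not given here. DESeq2 called 0 of 10, against 1.4% of its genes, and limma voom 0 of 10, against 0%. The direction of Bmp15 rested on COH replicate 1: its log2 fold change was -0.42 with all libraries and 0.11 without that one. Without COH replicate 1 the median of the 10 genes was -0.16, and without COH replicate 2 it was -0.73.

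**Figure D4:**
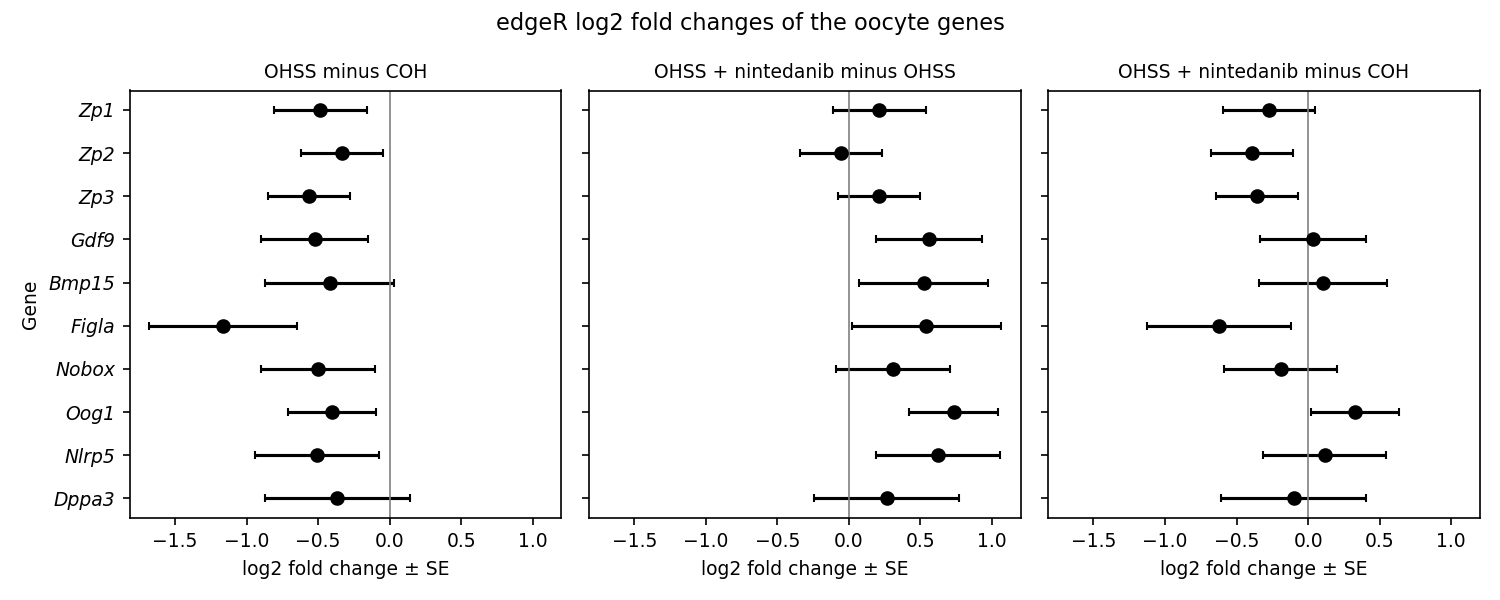
edgeR log2 fold change with its SE (x axis) for each oocyte gene (rows) in the comparisons OHSS minus COH, nintedanib minus OHSS and nintedanib minus COH (panels). In the left panel all points lie below 0, from -1.17 to -0.34, in the middle panel 9 of 10 lie above 0, and in the right panel they lie on both sides.

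Nintedanib-treated against untreated OHSS ovaries asks what the drug altered in the model, and it shares the OHSS libraries with the comparison above, so opposite signs in the pair are not separate evidence. The fitted mean was higher with nintedanib for 9 of the 10 genes, where 51.5% of all genes were, and Zp2 was the exception at -0.06 (SE 0.286). The log2 fold changes reached 0.73 (SE 0.311) for Oog1, 0.62 (SE 0.433) for Nlrp5, 0.56 (SE 0.371) for Gdf9 and 0.52 (SE 0.45) for Bmp15, while Zp1 and Zp3 stood at 0.21 (SE 0.325) and 0.21 (SE 0.287). Gdf9 averaged 55.2 ± 23.2 CPM with nintedanib and 37.5 ± 4.65 CPM in OHSS (SD, n = 2), and its nintedanib libraries differed by more than the group means did. The groups did not overlap for 1 gene, Oog1, higher with nintedanib, against 19.2% of all genes that were higher and 16.9% that were lower without overlap. Other measures differed here too. The mitochondrial share of counts was 5.877 and 5.717% with nintedanib against 6.799 and 7.096% in OHSS. Granulosa markers had 8 of 8 higher fitted means with the drug, endothelial markers 6 of 6 higher and macrophage markers 6 of 6 lower. DESeq2 called 1 of these, Lyz2 (adjusted p = 0.00461), beside 0.906% of all genes. Their part in the oocyte result was not tested.

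Between nintedanib and OHSS, edgeR called 0 of the 10 genes, beside 0.00526% of all genes, with 0 at an unadjusted p under 0.05 against 7.42% of all genes. DESeq2 called 0, against 0.906%, and limma voom called 0, against 0.00526%. The lowest unadjusted edgeR p was 0.0616, for Oog1 (adjusted p = 0.682). The median log2 fold change of the 10 was 0.42, against 0.01 over all genes, and this rested on nintedanib replicate 2. Without that library the median was -0.16 and 7 of the 9 positive genes turned negative, with Gdf9 at 0.05 and Oog1 at 0.45 as the ones that did not, and without nintedanib replicate 1 the median was 0.88.

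Against COH, the nintedanib libraries had a higher fitted mean for 4 of the 10 genes, where 49.9% of all genes did, and a lower one for 6, where 50.1% did. The log2 fold changes ran from -0.62 (SE 0.504) for Figla to 0.33 (SE 0.308) for Oog1. The coat genes stood at -0.27 (SE 0.324), -0.39 (SE 0.287) and -0.36 (SE 0.287) for Zp1, Zp2 and Zp3, and Gdf9 and Bmp15 at 0.03 (SE 0.37) and 0.10 (SE 0.448). Zp2 averaged 56.5 ± 21.9 CPM with nintedanib and 74.2 ± 9.35 CPM in COH (SD, n = 2). The groups overlapped for all 10 genes, where 45% of all genes did not overlap, 22.7% being lower and 22.3% higher. The edgeR test called 0 of 10, beside 0.0263% of all genes (0.021% higher and 0.00526% lower), and 0 at an unadjusted p under 0.05 against 9.7%. DESeq2 called 0, against 2.17%, and limma voom called 0, against 0.0105%. The median was -0.15, at -0.75 without nintedanib replicate 2 and 0.35 without nintedanib replicate 1.

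Other genes of the oocyte were taken from 4 lists with 39 genes, all of which passed the filter. Between OHSS and COH, 33 of 39 had a lower fitted mean in OHSS and 6 a higher one, with a median log2 fold change of -0.43. Between nintedanib and OHSS, 31 of 39 had a higher mean with the drug, with a median of 0.24, and between nintedanib and COH 15 of 39 had, with a median of -0.09. The edgeR test called 0 of 39 in each comparison, as did DESeq2 and limma voom, with 3, 1 and 2 at an unadjusted p under 0.05, beside 8.82%, 7.42% and 9.7% of all genes. The highest libraries were nintedanib replicate 2 and COH replicate 1 for 26 of the 39, and their mean centred log2 CPM was -0.38 and 0.39 with nintedanib, -0.25 and -0.08 in OHSS and 0.43 and -0.11 in COH. The lowest mean of these genes was in nintedanib replicate 1, as for the 10. The highest was in COH replicate 1, where the 10 had theirs in nintedanib replicate 2.

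Among those lists, the egg surface and fertilisation genes had 6 of 6 lower means in OHSS than in COH. Astl, which encodes the cortical granule protease that cleaves ZP2, had 10.5 and 18.1 CPM with nintedanib, 11.9 and 12.3 CPM in OHSS and 21.8 and 14.5 CPM in COH, and Oosp1, an oocyte-secreted protein gene, had 3.54 and 9.88 CPM, 3.47 and 3.83 CPM, and 8.32 and 4.03 CPM in the same groups. Cd9, a surface protein that egg and sperm fusion needs but that many ovarian cells also make, did not share their order of libraries, at 48.1 and 47.5 CPM, 41.9 and 35.9 CPM, and 48.5 and 56.3 CPM. In the subcortical maternal complex 5 of 6 were lower in OHSS. Padi6, a component of the egg's cytoplasmic lattices, had 60.04 and 102.3 CPM with nintedanib, 64.8 and 79.4 CPM in OHSS and 132.6 and 85.0 CPM in COH. Tle6 was highest in OHSS replicate 2, at 86.0 CPM against 54.0 to 63.9 CPM in the other libraries, and Zbed3 ran from 107.3 to 151.5 CPM.

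The list of other maternal genes had 20 of 22 lower means in OHSS than in COH. Nlrp14, an oocyte member of the NLR family, had 39.1 and 61.6 CPM in the nintedanib libraries, 37.1 and 45.9 CPM in OHSS and 78.6 and 41.1 CPM in COH. Zar1, which binds stored maternal mRNA, had 12.3 and 20.2 CPM, 11.4 and 14.3 CPM, and 25.3 and 13.2 CPM in the same groups, and Nlrp4f had 8.50 and 16.7 CPM, 9.71 and 11.8 CPM, and 15.8 and 8.13 CPM. The other oocyte transcription factors were mixed, with 2 of 5 lower and 3 higher in OHSS. Taf4b, a TFIID subunit gene, had 19.9 and 28.5 CPM with nintedanib, 16.1 and 14.8 CPM in OHSS and 15.1 and 12.4 CPM in COH. Both nintedanib libraries lay above all others (log2 fold change against OHSS 0.65, SE 0.22, edgeR adjusted p = 0.653). Of all genes, 19.2% lay above OHSS and 22.3% above COH without overlap. Taf4b thus did not share the order of libraries of the oocyte genes, and which ovarian cells gave its RNA was not tested. Pou5f1, the gene of OCT4, had 2.12 and 4.11 CPM, 2.96 and 3.27 CPM, and 4.75 and 3.12 CPM, and Lhx8 ran from 2.19 to 3.68 CPM.

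GDF9 and BMP15 signal through type II and type I receptor kinases and SMAD proteins in the cells around the oocyte. Of 13 receptor and SMAD genes edgeR called 0 in each comparison, with 1, 2 and 2 at an unadjusted p under 0.05 for OHSS against COH, nintedanib against OHSS and nintedanib against COH, beside 8.82%, 7.42% and 9.7% of all genes. Bmpr2, the type II receptor for both ligands, had 379.2 and 456.7 CPM with nintedanib, 266.8 and 314.6 CPM in OHSS and 245.6 and 256.9 CPM in COH. Both nintedanib libraries lay above all others, with a log2 fold change of 0.73 (SE 0.142) against COH. Without overlap, 19.2% of all genes lay above OHSS and 22.3% above COH. Bmpr1b, a type I receptor for BMP15 that is named after its values were seen, had 57.1 and 90.5 CPM with nintedanib, 32.5 and 40.6 CPM in OHSS and 29.3 and 28.02 CPM in COH. Its log2 fold change was 1.014 (SE 0.246, edgeR adjusted p = 0.653) against OHSS and 1.36 (SE 0.248, edgeR adjusted p = 0.367) against COH. DESeq2 called these 2 genes and no other of the list, between nintedanib and COH only, where it called 2.17% of all genes, at an adjusted p of 0.00716 for Bmpr2 and 0.000355 for Bmpr1b, and limma voom called 0. Tgfbr1, the type I receptor for GDF9, had 222.4 and 220.1 CPM with nintedanib, 236.0 and 343.3 CPM in OHSS and 259.9 and 311.7 CPM in COH, and Bmpr1a ran from 139.1 to 169.4 CPM.

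Nintedanib replicate 2 and COH replicate 1 were the highest libraries for 1 of 7 inhibitors of the pathway and for 1 of 9 genes that respond to it, beside 6.53% of all genes. Fst, the gene of follistatin, had 132.5 and 209.7 CPM with nintedanib, 68.6 and 99.5 CPM in OHSS and 81.8 and 62.3 CPM in COH, with a log2 fold change of 1.25 (SE 0.301) against COH. DESeq2 called it there (adjusted p = 0.011), as the 1 call in the inhibitor list, beside 2.17% of all genes, and edgeR did not (adjusted p = 0.461). Grem1, a BMP antagonist of cumulus cells, had 45.5 and 190.7 CPM with nintedanib, 31.0 and 14.5 CPM in OHSS and 19.3 and 8.83 CPM in COH. Of 9 genes known to respond to GDF9 or BMP15 in mouse granulosa cells, edgeR called 0 in each comparison. At an unadjusted edgeR p under 0.05 stood 2 for OHSS against COH, 1 for nintedanib against OHSS and 1 for nintedanib against COH. The shares of all genes were 8.82%, 7.42% and 9.7%. Ptx3, a protein of the cumulus matrix named after its values were seen, was the 1 gene called by DESeq2, between OHSS and COH (adjusted p = 0.00137, beside 1.4% of all genes called), at 1.29 and 1.58 CPM in OHSS and 5.62 and 4.24 CPM in COH, and its edgeR adjusted p there was 0.425. Amh, the granulosa hormone gene, had 93.5 and 110.0 CPM with nintedanib, 79.5 and 98.0 CPM in OHSS and 178.1 and 120.8 CPM in COH. Its log2 fold change was -0.75 (SE 0.224, edgeR adjusted p = 0.535) for OHSS minus COH.

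Genes by which the oocyte and the granulosa cells contact each other gave 0 edgeR calls among 7 in each comparison. The shares of all genes called were 0.0105% for OHSS against COH, 0.00526% for nintedanib against OHSS and 0.0263% for nintedanib against COH. At an unadjusted p under 0.05 in edgeR stood 1, 2 and 1 of the 7, beside 8.82%, 7.42% and 9.7% of all genes. Gja1, the granulosa gap junction gene, had 901.1 and 458.7 CPM with nintedanib, 367.2 and 933.6 CPM in OHSS and 1425 and 1543 CPM in COH. Both OHSS and both nintedanib libraries lay below both COH libraries, as did 22.9% of all genes for OHSS and 22.7% for nintedanib. Kitl, the granulosa ligand of the oocyte receptor KIT, ran from 62.7 to 156.9 CPM, and Npr2, the receptor that holds meiotic arrest, from 84.7 to 126.4 CPM, with overlap between OHSS and COH for both.

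Markers of other ovarian cells were set beside the oocyte profile. Granulosa markers summed to 5008 and 4810 CPM with nintedanib, 3203 and 3205 CPM in OHSS and 2959 and 2945 CPM in COH, with Inha as the largest part (mean 2490 CPM). Between nintedanib and COH, 7 of the 8 had a higher fitted mean with the drug. Amh had a lower one (log2 fold change -0.555, SE 0.224). DESeq2 called 4 of the 8 there, beside 2.17% of all genes, and edgeR and limma voom called 0. Of the 8 genes, 0 had nintedanib replicate 2 and COH replicate 1 as the highest libraries. Luteal, macrophage, erythroid and fat cell lists also held 0 such genes. The endothelium list held 1 of 6, the theca and stroma list 1 of 6 and the oviduct list 1 of 5. The ovarian surface epithelium list came closest to the oocyte genes, with 4 of 6 such genes and summed levels of 63.3 and 118.5 CPM with nintedanib, 81.7 and 128.9 CPM in OHSS and 150.6 and 129.7 CPM in COH. None of its markers was at 0, for instance Krt8 at 9.89 and 20.2 CPM, 7.88 and 7.66 CPM, and 19.1 and 10.8 CPM in the same groups. Lgr5 and Upk3b, with higher means than Krt8, did not share the order of libraries of the oocyte genes. Lgr5 had 31.1 and 46.5 CPM, 42.5 and 66.3 CPM, and 52.1 and 74.0 CPM in the same groups. Upk3b had 12.2 and 24.2 CPM, 19.1 and 35.6 CPM, and 48.3 and 29.7 CPM. The part of the surface epithelium in the oocyte result was not tested. Oviduct markers summed to 6.51 to 11.3 CPM, with Foxj1 at 0 to 0.49 CPM and the secretory gene Ovgp1 at 0.67 to 3.38 CPM. Fat cell markers summed to 31.85 to 78.16 CPM, with Plin1 at 28.9 to 76.0 CPM, Fabp4 at 1.18 to 2.80 CPM and Adipoq at 0 to 0.76 CPM.

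**Figure D5:**
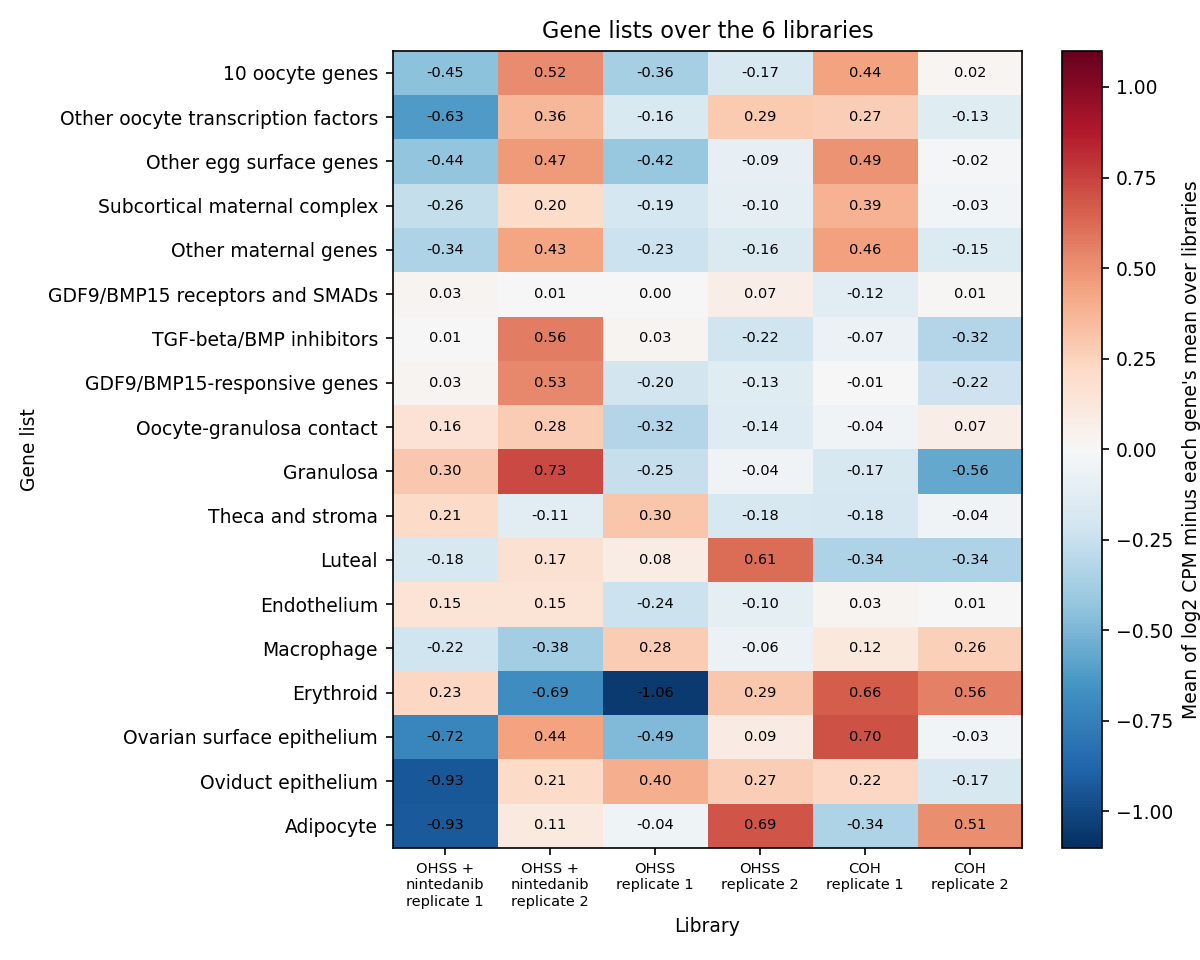
Mean over each gene list (rows) of log2 CPM minus each gene's mean over the 6 libraries, printed and coloured per library (columns). The row of the 10 oocyte genes, from -0.45 to 0.52, shares its signs at nintedanib replicates 1 and 2, OHSS replicate 1 and COH replicate 1 with the other oocyte lists and the surface epithelium, while granulosa markers are at 0.30 and 0.73 with nintedanib and -0.17 and -0.56 in COH.

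The genes outside the 10 whose profile was most like theirs were found as those with the smallest root mean square difference from the mean profile over the 6 libraries, among genes with a mean of at least 1 CPM and a full gene name. They were Shbg (0.0768 on the log2 scale), Adm2 (0.0771), Susd4 (0.101), Astl (0.108), Lekr1 (0.114), Dfna5 (0.117), Scn2b (0.118) and Car9 (0.12). The 10 genes themselves lay between 0.0967, for Zp1, and 0.38, for Figla, from the same profile. The 8 were picked as the closest of all genes searched and the 10 were not, so these ranges do not compare like with like. Susd4, a regulator of complement, had 8.57 and 15.3 CPM with nintedanib, 9.93 and 9.77 CPM in OHSS and 17.6 and 11.6 CPM in COH. Astl is the only gene of the 8 that was on a list of oocyte genes here.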

How the data were processed

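Ovarian RNA was sequenced in 6 libraries. The deposited file gives raw counts per Ensembl gene, as whole numbers, and the authors' read summaries give each library's number of reads. Trimmomatic 0.36, HISAT2 2.1.0, StringTie 1.3.3b and the build mm8 were used, per the submitters' processing notes, which give no roles. The counting program, strandedness and the handling of multi-mapping reads are not given here.

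Groups and replicate numbers were read from the titles. Counts were filtered with filterByExpr, scaled with TMM (factors 0.961 to 1.03) and tested with edgeR 4.0.16 in R 4.3.3. The quasi-likelihood F test was two-sided, with all 3 groups in the model (3 residual and 2.41 prior degrees of freedom), and p-values were adjusted over 19027 genes at a threshold of 0.05. Log2 CPM used a prior count of 2. The SE of a log2 fold change was derived as its absolute value divided by the square root of its F statistic. The code was tested on simulated data. Alternatives were other scalings and filters, DESeq2 1.42.0, limma 3.58.1 voom, a replicate block, 2-group fits and each library left out. Leaving libraries out of the coat ratio was added after its values were seen.

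The 10 genes and the gene lists were chosen with earlier results of these data known. Genes named are the 10, those among the 3 highest in mean CPM of a list described, and the 8 most alike in profile. Bmpr1b, Ptx3, Kit, Foxj1 and the ratios between genes lie outside this rule. Lengths and shared windows of 75 bases came from GENCODE M21, and promoters from RefSeq GRCm38.p6.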

Additional observations from a re-analysis of the deposited data

How the results depend on the processing

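The count of called genes among the 10 was 0 in each comparison under every alternative run (other scalings and filters, DESeq2, limma voom, the replicate block, 2-group fits and each library left out). With 1 library left out, the counts ran from 0 to 0, and the median log2 fold change of the 10 genes from -0.73 to -0.16 for OHSS minus COH, from -0.16 to 0.88 for nintedanib minus OHSS and from -0.75 to 0.35 for nintedanib minus COH. Over the other alternatives the medians ran from -0.56 to -0.47, from 0.33 to 0.49 and from -0.28 to -0.14.

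Of 450 values of single genes under an alternative, 22 reversed their sign, 20 of them with a library left out. For OHSS minus COH, Bmp15 ran from -0.80 to 0.11. For nintedanib minus OHSS the ranges were -0.25 to 0.56 for Zp1, -0.52 to 0.29 for Zp2, -0.21 to 0.53 for Zp3, -0.11 to 0.96 for Bmp15, -0.10 to 0.97 for Figla, -0.43 to 0.79 for Nobox, -0.041 to 1.075 for Nlrp5 and -0.70 to 0.83 for Dppa3. For nintedanib minus COH they were -0.73 to 0.07 for Zp1, -0.48 to 0.45 for Gdf9, -0.53 to 0.63 for Bmp15, -0.93 to 0.29 for Nobox, -0.55 to 0.57 for Nlrp5 and -1.07 to 0.47 for Dppa3. Zp2 for nintedanib minus OHSS was 0.014 with library size only, and Gdf9 for nintedanib minus COH was -0.004 with the replicate block. The causes were not tested.

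The labels do not say what the replicate numbers stand for. The deviations of same-numbered libraries correlated at -0.002 (nintedanib and OHSS), 0.048 (nintedanib and COH) and -0.001 (OHSS and COH) over all genes tested. These values do not show whether same-numbered libraries were handled together. With the replicate block 0 of the 10 genes were called, and the medians were -0.51, 0.35 and -0.24. With 2 libraries a group, and with Figla at 14 to 39 counts, the spread between libraries limits what can be seen: the SE of a log2 fold change was 0.286 to 0.52 over the 10 genes.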
